A study of Mus musculus with 12 samples.

Results

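T cell receptor beta chains (TRB) whose CDR3 carries a hydrophobic residue at both position 6 and position 7 were followed in 12 libraries of mouse thymocytes. Positions were counted along the CDR3 protein sequence with the first cysteine as 1, and the hydrophobic set held alanine, phenylalanine, isoleucine, leucine, methionine, valine, tryptophan and tyrosine. Among 571696 productive clonotype entries with a CDR3 of 8 or more residues, 16278 met this rule. After entries with the same V segment, J segment and nucleotide CDR3 were merged within a library, 15450 of 540755 clonotypes and 35489 of 1232755 reads remained in the set. They made up 13032 different combinations of V segment, CDR3 protein sequence and J segment. The comparison is with all other productive beta chains of the same libraries, of which 195130 entries had a hydrophobic residue at 1 of both positions and 360288 at neither.

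The libraries came from the thymus of 3 wild-type (WT) mice and 3 mice lacking Chrna9 (Chrna9 KO), which encodes the alpha 9 nicotinic acetylcholine receptor subunit. Thymocytes positive for CD4 alone (CD4SP) or for CD8 alone (CD8SP) were sorted by CD4 and CD8 staining, which gave 4 groups of 3 libraries: WT CD4SP, Chrna9 KO CD4SP, WT CD8SP and Chrna9 KO CD8SP. The mice formed 2 male pairs and 1 female pair, each of 1 WT and 1 KO animal, and 1000000 CD4SP or 330000 CD8SP cells were sorted per sample, per the series design text. The labels name no treatment, and the sources used here do not give the strain, the age or the way Chrna9 was deleted. Libraries of CD4SP and CD8SP with the same genotype and number were taken to come from 1 mouse, so the 12 libraries stand for 6 mice.

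The CDR3 is the loop made where V, D and J segments join, and its middle residues face the peptide held by MHC. Hydrophobic residues at positions 6 and 7 of the beta chain have been linked in mice to receptors that bind self peptide and MHC strongly, and negative selection removes thymocytes whose receptors bind self too strongly. The share of chains with such residues is therefore used here as an indirect readout of self-reactivity in a repertoire. Binding to self was not measured, and other ways of numbering the CDR3 may place these positions differently. The share says nothing about any single receptor, whose alpha chain and ligand were not measured here.

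The following 7 sequences are nucleotide CDR3s from the clonotype tables, 5′ to 3′ on the coding strand. Each is from the most widely shared CDR3 of its residue pair, in its nucleotide form found in the largest number of libraries. After the first, the printed forms were found in 3, 4, 1, 4, 6 and 4 libraries, in the order shown. The form found in 1 library was tied with other forms of its CDR3. Codons 6 and 7 are in capitals, and the protein sequence of each CDR3 stands in its name. The first is the most widely shared member. The others are shown because their residue pairs differed between CD4SP and CD8SP, and because V, D and J encode these codons in different ways.
TRBV13-1 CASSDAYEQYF TRBJ2-7: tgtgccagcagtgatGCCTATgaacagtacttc
TRBV13-1 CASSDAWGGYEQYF TRBJ2-7: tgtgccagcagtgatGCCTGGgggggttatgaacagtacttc
TRBV13-1 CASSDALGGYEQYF TRBJ2-7: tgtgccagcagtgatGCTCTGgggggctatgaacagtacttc
TRBV13-1 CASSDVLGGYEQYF TRBJ2-7: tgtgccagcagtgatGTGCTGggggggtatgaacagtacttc
TRBV13-1 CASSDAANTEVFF TRBJ1-1: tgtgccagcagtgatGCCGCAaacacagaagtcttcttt
TRBV12-1 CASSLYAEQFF TRBJ2-1: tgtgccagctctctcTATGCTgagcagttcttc
TRBV13-2 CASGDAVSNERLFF TRBJ1-4: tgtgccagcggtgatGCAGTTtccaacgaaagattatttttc

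In the alanine-tryptophan and alanine-leucine examples, the first 2 bases of the alanine codon came from TRBV13-1. The TGG or CTG codon at position 7 came from TRBD2, by the segment boundaries in the deposited tables. In the tyrosine-alanine example, all 6 bases of both codons came from TRBJ2-1. The alanine-tyrosine example has no assigned D segment: V gave 2 bases and TRBJ2-7 gave 4. TRBV13-1 lies at chromosome 6, 41116036 to 41116468, TRBV13-2 at 41121396 to 41121832, TRBV12-1 at 41113567 to 41114067 and TRBJ2-1 at 41542754 to 41542803 of the same chromosome (RefSeq, GRCm38, the build also named mm10).

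Productive TRB reads numbered 73977 to 134088 per library and merged clonotypes 36719 to 51877, of which 1060 to 1462 were hydrophobic at both positions. No member clonotype held more than 20 reads in a library, and 38.5% of member clonotypes had 1 read, against 39.3% of the others. The total share therefore rested on no expanded clone, but sparse pairs could: 1 clonotype held 12 reads of the pair MV in a library. Invariant natural killer T cells, marked by TRAV11 joined to TRAJ18, made up 5.27% to 8.51% of productive alpha reads in CD4SP and 0.0588% to 0.124% in CD8SP. Chains of mucosal-associated invariant T cells were at most 0.0464% in any library. The beta chains of the invariant cells cannot be picked out of these tables, and their part in the CD4SP values below was not tested.

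The genotype comparison asked whether loss of Chrna9 changed the share of these chains among thymocytes sorted as CD4SP or CD8SP. Whether all of these cells had completed selection cannot be told from their clonotypes. In CD4SP the members were 2.83%, 2.70% and 2.67% of productive reads in the WT libraries and 2.72%, 2.81% and 2.63% in the KO libraries. The groups overlapped, with means of 2.73% ± 0.0825 (SD, n = 3) in WT and 2.72% ± 0.0885 (SD, n = 3) in KO. The paired difference, KO minus WT, was -0.0145 percentage points ± 0.112 (SD of 3 pairs), with 1 of 3 pairs higher in KO (exact two-sided sign-flip permutation test, p = 0.75). The smallest p that 3 pairs allow is 0.25, so this design could not pass 0.05 by that test.

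In CD8SP the WT libraries had 2.91%, 3.02% and 2.93% and the KO libraries 3.001%, 2.99% and 3.08%. These ranges also overlapped, and the paired difference was 0.0723 percentage points ± 0.0878, with 2 of 3 pairs higher in KO (exact sign-flip permutation test, p = 0.5). Counted as clonotypes, so that each clonotype weighs the same, KO minus WT was 0.0207 points in CD4SP (p = 1, exact test) and 0.0951 in CD8SP (p = 0.5, exact test). The KO effect in CD4SP minus that in CD8SP was -0.0867 points ± 0.190 (3 pairs, exact p = 0.5). Both differences in the share of reads were smaller than the SD between pairs. The 95% Wilson interval of a single library, which covers counting error only, ran for WT CD4SP library 1 from 2.72% to 2.94%, wider than either genotype difference. Reads were not collapsed by molecular identifiers, so true counting error is larger.

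**Figure D1:**
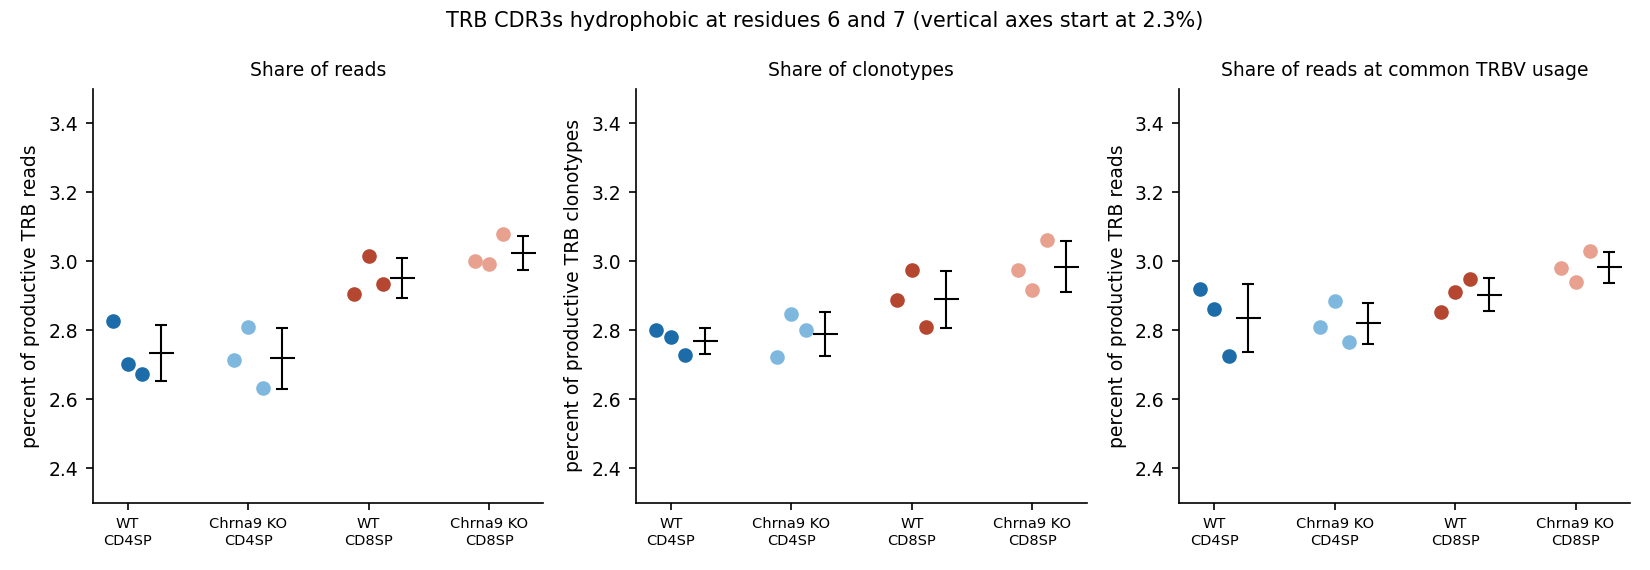
Share of beta chains hydrophobic at residues 6 and 7, as percent of productive reads (left), percent of clonotypes (middle) and percent of reads at common TRBV usage (right). Points are libraries, bars are means ± SD of 3 libraries, and the vertical axes start at 2.3%; all 6 CD8SP libraries lie above all 6 CD4SP libraries on the left, while the ranges overlap on the right.

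Between the sorted populations the share differed. All 6 CD8SP libraries (2.91% to 3.08%) lay above all 6 CD4SP libraries (2.63% to 2.83%), with means of 2.99% ± 0.0618 and 2.73% ± 0.0769 (SD, n = 6). CD4SP minus CD8SP was -0.261 percentage points ± 0.125 (SD over 6 mice), and CD4SP was lower in 6 of 6 mice. The exact sign-flip permutation test gave p = 0.03125, the smallest that 6 mice allow, and 0.0597 after Benjamini-Hochberg adjustment over the 21 measures of the members. The same adjusted value holds for every measure of this panel with an exact p of 0.03125 below. Among them are the share of clonotypes, position 6, the neighbouring position pairs, member length and tryptophan in members. By clonotypes the difference was -0.158 points ± 0.0888, again lower in CD4SP in 6 of 6 mice (exact p = 0.03125), though the libraries overlapped. CD4SP and CD8SP libraries differed in sorted cell number and in reads per member clonotype, 1.87 ± 0.1004 against 2.71 ± 0.154, and the part of these in the difference was not tested.

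The difference moved with segment usage. When each library was given the mean TRBV usage of all 12 libraries, CD4SP minus CD8SP shrank to -0.115 points ± 0.125 (exact sign-flip p = 0.125), with 1 of 6 mice higher in CD4SP, and the libraries overlapped. At common TRBJ usage it was -0.193 (exact p = 0.03125), at common CDR3 length -0.172 (exact p = 0.0625) and at common TRBV and TRBJ usage together -0.0811 (exact p = 0.15625). Without alanine and tyrosine in the hydrophobic set, it was -0.0498 (exact p = 0.09375). Of the genotype differences, that in CD8SP became 0.0790 points at common TRBV usage, higher in KO in 3 of 3 pairs, where the smallest p is 0.25, and that in CD4SP became -0.0156.

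Residue 6 taken alone was less often hydrophobic in CD4SP in every mouse, while residue 7 went both ways. The part of TRBV usage in these values was not tested. Position 6 was hydrophobic in 18.9% ± 0.400 of CD4SP reads and 19.6% ± 0.0542 of CD8SP reads (SD, n = 6), a difference of -0.756 points with CD4SP lower in 6 of 6 mice (exact sign-flip p = 0.03125). Position 7 was hydrophobic in 21.1% ± 0.0970 and 21.04% ± 0.231, a difference of 0.0423 points with 3 of 6 mice higher in CD4SP (exact p = 0.75). The product of the shares of hydrophobic residues at each position exceeded the share of members: the observed share was 0.685 ± 0.0147 of the product in CD4SP and 0.723 ± 0.0137 in CD8SP, lower in CD4SP in 6 of 6 mice. Hydrophobic residues at both positions were thus rarer than the shares at each position would give in every library.

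Neighbouring position pairs, read the same way, also differed between the populations. The part of TRBV usage in these differences was likewise not tested. Both residues were hydrophobic at positions 5 and 6 in 5.71% of CD4SP and 6.10% of CD8SP reads, at 7 and 8 in 2.79% and 3.10%, and at 8 and 9 in 4.07% and 4.77%. CD4SP was lower in 6 of 6 mice at each of these (exact p = 0.03125), so the difference was not shown to belong to positions 6 and 7 alone. The share with 1 hydrophobic residue at either position was 34.5% ± 0.354 in CD4SP and 34.7% ± 0.225 in CD8SP, a difference of -0.191 points (exact p = 0.40625).

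Joins that are out of frame make no receptor protein and were read at the same codons, counted from the cysteine codon. Their J bases are thus read in another frame than in productive chains. The part of this in the differences below was not tested. Of 1395 to 2189 out-of-frame reads per CD4SP library, 3.48% ± 0.828 (SD, n = 6) carried hydrophobic codons at both positions, against 2.73% of productive reads, a difference of -0.753 points that was negative in 5 of 6 mice (exact sign-flip p = 0.09375). In CD8SP, with 1148 to 1732 out-of-frame reads, the values were 3.72% ± 0.590 and 2.99% (difference -0.731, 5 of 6 mice, exact p = 0.0625). The productive share was lower than the out-of-frame share in most mice, and neither difference passed 0.05. At position 6 alone the difference was -0.975 points in CD4SP (5 of 6 mice lower, exact sign-flip p = 0.09375) and -1.76 in CD8SP (6 of 6 mice, exact p = 0.03125). At position 7 alone it was 0.385 and 0.265 points (exact p = 0.625 and p = 0.5625). Given the TRBV usage of the productive joins, the differences for both positions together were -0.480 in CD4SP and -0.0929 in CD8SP (exact p = 0.1875 and p = 0.6875). Each library had only 22 to 53 out-of-frame clonotypes with these codons, which limits these shares.

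The members were uneven in which residues they used. All 64 possible pairs were seen and 44 were found in every library, but 10 pairs held 57.4% of member reads. Written as residue 6 and then residue 7 in one-letter code, these were AW (0.303% of productive reads), AL (0.298%), AA (0.234%), VW (0.151%), VL (0.130%), VA (0.111%), YW (0.108%), AV (0.104%), YA (0.102%) and WA (0.0993%). Alanine stood at position 6 in 39.7% of member reads, followed by valine in 18.4% and leucine in 13.97%. Position 7 was alanine in 25.2%, tryptophan in 23.6% and leucine in 22.0% of member reads. Methionine was the rarest at both positions, and the pair YM had 3 reads in all.

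**Figure D2:**
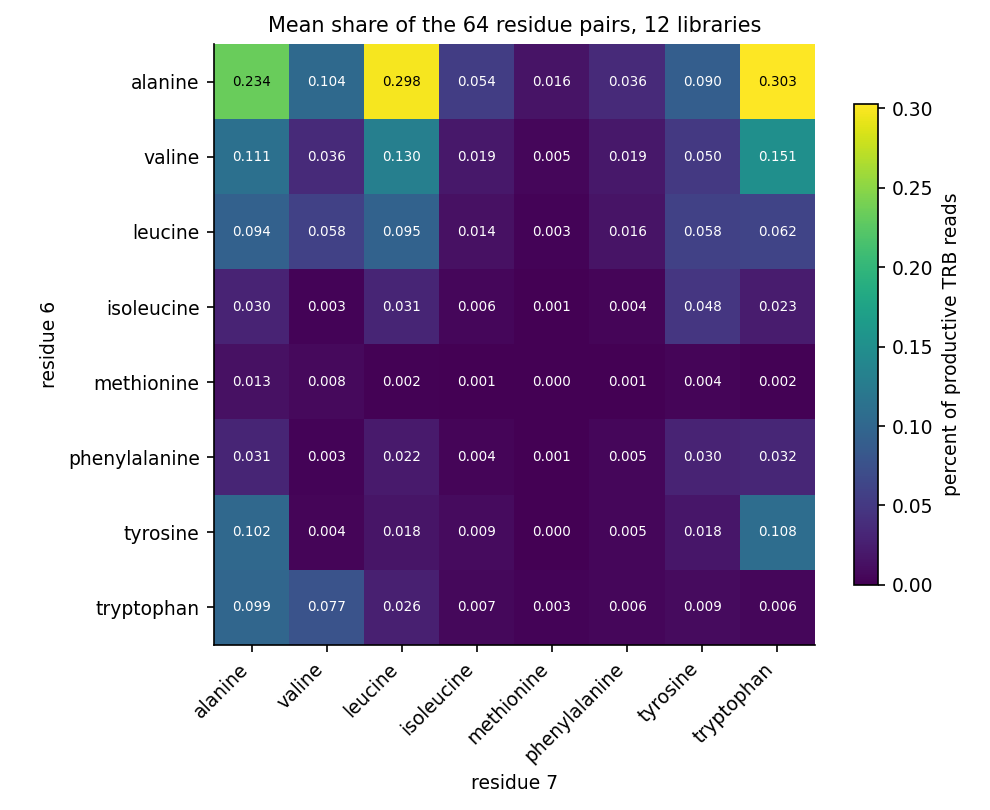
Mean share of each of the 64 hydrophobic residue pairs over 12 libraries, in percent of productive TRB reads, with residue 6 in rows and residue 7 in columns. Alanine at position 6 with tryptophan (0.303) or leucine (0.298) at position 7 has the highest shares, and tyrosine-methionine (0.000295) has the lowest.

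These residues came from different segments. Tryptophan at position 7 was encoded wholly by D bases in 76.6% of the 3727 member clonotypes that had it, nearly all from TRBD2, and leucine at position 7 wholly by D in 56.6% of 3351. Tyrosine at position 7 was wholly J-encoded in 79.3% of 1651 clonotypes and alanine at position 7 in 42.8% of 3888. Alanine at position 6 was wholly V-encoded in 27.2% of 6000 clonotypes and of mixed origin in 59.97%. Methionine at position 6 came wholly from added bases, those assigned to no segment, in 90.8% of 153. The pair YA, with 526 clonotypes, stood apart by reads: both codons lay in the J segment in 80.2% of its 1298 reads, and TRBJ2-1 was used in 87.1% of them.

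Against the other productive chains, members had fewer D bases and more added bases. Of the bases of codons 6 and 7, 27.8% ± 2.07 (SD, n = 12 libraries) came from D in members and 55.9% ± 0.720 in the others, while added bases were 36.4% ± 0.927 and 21.2% ± 0.140. Both differences had the same direction in 12 of 12 libraries. TRBD2, whose reading frames include tryptophan and leucine, was the best D hit in 43.3% of member reads and 30.6% of other reads. TRBD1, whose frames encode neither, was the best hit in 11.3% and 41.9%. No D segment was assigned in 45.4% of member reads and 27.5% of the others. The TRBJ2 cluster, which lies behind TRBD2, was used in 83.5% ± 1.57 of member reads and 73.4% ± 0.776 of the others, higher in members in 12 of 12 libraries. These values are a description with no test, because the rule fixes the residues that codons 6 and 7 may encode and so bears on which segments encode them.

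Reads per residue pair were tested over all 400 possible ordered pairs by the quasi-likelihood test of edgeR (p adjusted by Benjamini-Hochberg), with the productive reads as library size. Of the 64 member pairs, 42 passed the filter on low counts, among 315 pairs tested. No pair was called between KO and WT in CD4SP or in CD8SP, or in the test of whether these differences differed (0% of the 315 pairs in each). At an unadjusted p under 0.05 there were 3 member pairs in each of these comparisons by edgeR, beside 10, 27 and 12 of all 315 pairs. DESeq2 had 2, 2 and 1 member pairs at an unadjusted p under 0.05 and none after adjustment. The 10 leading pairs had log2 fold differences, KO over WT, from -0.34 to 0.33 in CD4SP and from -0.24 to 0.50 in CD8SP, where AV was the most different (adjusted p = 0.409, edgeR quasi-likelihood test, Benjamini-Hochberg adjusted).

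Between CD4SP and CD8SP, 39.7% of all pairs tested passed the threshold of 0.05, 58 higher and 67 lower in CD4SP. Of the 42 member pairs tested, 7 passed, 2 higher and 5 lower in CD4SP. The median log2 fold difference was -0.12 over the member pairs and -0.06 over all pairs tested.

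Of the pairs with leucine at position 7, AL and VL were lower in CD4SP. AL made up 0.263%, 0.239%, 0.289%, 0.275%, 0.281% and 0.267% of productive reads in the WT and KO CD4SP libraries, and 0.342%, 0.317%, 0.322%, 0.351%, 0.316% and 0.317% in the CD8SP libraries in the same order. The 2 populations did not overlap for AL, and the log2 fold difference was -0.28 ± 0.0834 (SE, adjusted p = 0.00279, edgeR quasi-likelihood test, Benjamini-Hochberg adjusted). VL differed by -0.51 ± 0.123 (edgeR adjusted p = 0.00021), with 0.0702% to 0.141% of reads in CD4SP and 0.104% to 0.196% in CD8SP, which overlapped. At common TRBV usage AL remained lower in CD4SP in 6 of 6 mice (log2 ratio of means -0.29) and so did VL (-0.56). Of the 7 member pairs with leucine at position 7 that were tested, only these passed. LL, IL, WL and YL were negative without passing (-0.19, -0.46, -0.47 and -0.70 on the log2 scale), and FL was at 0.04.

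The alanine-tryptophan pair was higher in CD4SP. AW made up 0.346%, 0.348%, 0.333%, 0.326%, 0.320% and 0.315% of reads in the WT and KO CD4SP libraries, and 0.294%, 0.261%, 0.273%, 0.246%, 0.284% and 0.285% in the CD8SP libraries. No CD8SP library reached the lowest CD4SP library, and the log2 fold difference was 0.28 ± 0.0827 (SE, edgeR adjusted p = 0.00331), or 0.27 as a ratio of means at common TRBV usage. Of the 6 pairs tested with tryptophan at position 7, AW alone passed, 5 were positive by sign, YW was at -0.09, and the median was 0.25. In all, tryptophan at either position made up 35.1% ± 2.79 of member reads in CD4SP and 29.0% ± 1.52 in CD8SP, higher in CD4SP in 6 of 6 mice (exact sign-flip permutation test, p = 0.03125). Among the other productive reads it was 8.65% and 8.44%, also higher in CD4SP in 6 of 6 mice, by 0.217 points.

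The other 4 pairs called involve alanine or valine at position 7. YA differed by -0.52 ± 0.139 (edgeR adjusted p = 0.000886), AA by -0.30 ± 0.0933 (edgeR adjusted p = 0.00453) and AV by -0.42 ± 0.138 (edgeR adjusted p = 0.00725), all lower in CD4SP. As counted, YA and AA were each lower in CD4SP in 5 of 6 mice (exact sign-flip p = 0.0625 each). AV was lower in 6 of 6 (exact sign-flip p = 0.03125). At common TRBV usage these 3 were lower in CD4SP in 5 of 6 mice, with log2 ratios of -0.36, -0.18 and -0.33. CD4SP and CD8SP libraries overlapped for each in both settings. MV, at 1.68 ± 0.656 (edgeR adjusted p = 0.0288), was sparse: it had 6 to 13 reads in the CD4SP libraries, 0 to 2 in 4 CD8SP libraries and 19 and 17 in KO CD8SP libraries 2 and 3, and it was higher in CD4SP in 4 of 6 mice. Its call was lost in 5 of the 6 fits that left out a mouse, those without WT mouse 1 or 3 or any KO mouse. AV was lost without KO mouse 3, where its adjusted p was 0.0568 by edgeR. DESeq2 called 5 of the 7, without AA and AV.

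Read one residue at a time, some residues differed in the same direction inside and outside the set and some did not. Leucine at position 7 stood in members in 0.554% ± 0.0607 of reads in CD4SP and 0.690% ± 0.0448 in CD8SP (SD over 6 libraries), and beside a residue 6 that is not hydrophobic in 4.10% and 4.55%, lower in CD4SP in 6 of 6 mice both times. Alanine at position 7 stood in members in 0.658% and 0.773%, lower in CD4SP in 5 of 6 mice. Outside the set it went the other way, with 3.78% ± 0.0816 of CD4SP and 3.27% ± 0.111 of CD8SP reads, higher in CD4SP in 6 of 6 mice. Leucine at position 6 split likewise, with 0.383% and 0.417% inside (lower in CD4SP in 6 of 6 mice) and 3.84% and 3.59% outside (higher in 6 of 6). The smallest p of the exact sign-flip test, 0.03125, became 0.0833 after adjustment over the 32 values of this family.

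**Figure D3:**
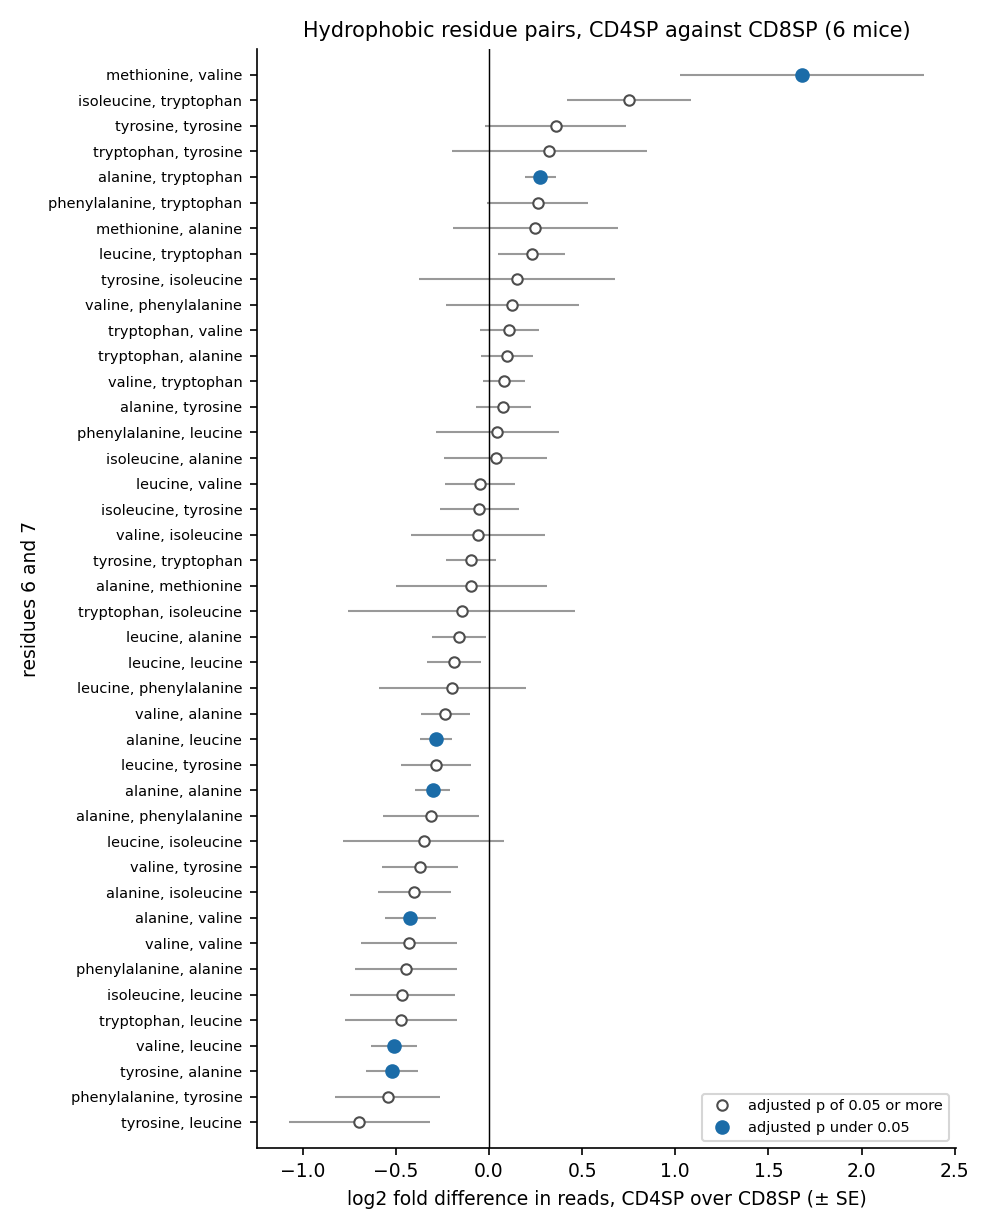
Log2 fold difference in reads, CD4SP over CD8SP, for the 42 hydrophobic residue pairs tested, with SE bars, named by residue 6 and then residue 7. Filled points have an edgeR adjusted p under 0.05: 5 pairs lower and 2 higher in CD4SP, among them alanine-tryptophan at 0.28 and valine-leucine at -0.51.

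By V segment, the members' share ranged widely. Among segments that carried at least 0.5% of productive reads, the share of a segment's own reads was highest for TRBV13-2 (6.503% ± 0.616, SD, n = 12), TRBV13-1 (4.95% ± 0.351), TRBV13-3 (3.29% ± 0.343), TRBV16 (3.28% ± 1.03) and TRBV3 (3.06% ± 0.574). It was lowest for TRBV2 (1.07% ± 0.651), TRBV5 (1.79% ± 0.259), TRBV19 (1.88% ± 0.798), TRBV26 (1.93% ± 0.274) and TRBV29 (1.96% ± 0.378). TRBV13-1 alone supplied 23.4% of member reads from 13.6% of productive reads, while TRBV5 supplied 8.65% of member reads from 14.04%. Every library of TRBV13-2 lay above every library of TRBV5 (5.66% to 7.62% against 1.43% to 2.24%). The segments differed at position 6: a hydrophobic residue stood there in 36.6% of TRBV13-2 reads, 30.1% of TRBV13-1 reads and 10.9% of TRBV5 reads. At position 7 the same segments had 20.7%, 19.8% and 25.1%. Among TRBV13-2 members, alanine stood at position 6 in 67.5% of reads, and a V base lay in codon 6 in 76.1%.

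Within V segments, the members' share was compared with the reads of that segment as the base, so that usage itself did not enter. None of 21 segments was called in any of the 4 comparisons by edgeR (0% of segments), with 0, 1, 8 and 1 at an unadjusted p under 0.05 for KO against WT in CD4SP, in CD8SP, CD4SP against CD8SP and the difference of genotype effects. For CD4SP against CD8SP the smallest p belonged to TRBV14 (-0.40), TRBV12-1 (0.31) and TRBV17 (0.65 on the log2 scale), each with an edgeR adjusted p of 0.0862. In CD4SP TRBV14 had 2.40% ± 0.186 members and in CD8SP 3.20% ± 0.534, TRBV12-1 3.27% ± 0.629 and 2.62% ± 0.226, and TRBV17 2.77% ± 0.711 and 1.77% ± 0.439. These results turned on the fit. Without the mouse as a block 7 segments were called (TRBV5, TRBV12-1, TRBV13-1, TRBV13-3, TRBV14, TRBV16 and TRBV17), 7 with each clonotype counted once, 5 without KO mouse 2, 4 without KO mouse 3 and 1 without WT mouse 1. Usage of the segments themselves also differed: TRBV5 took 17.7% of CD4SP and 10.3% of CD8SP reads, TRBV31 21.5% and 5.57%, and TRBV13-1 12.1% and 14.99%. In KO against WT, TRBV31 in CD8SP had the smallest p (0.28, edgeR adjusted p = 0.743), and it was called only without WT CD8SP library 3 (0.46, edgeR adjusted p = 0.0421).

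**Figure D4:**
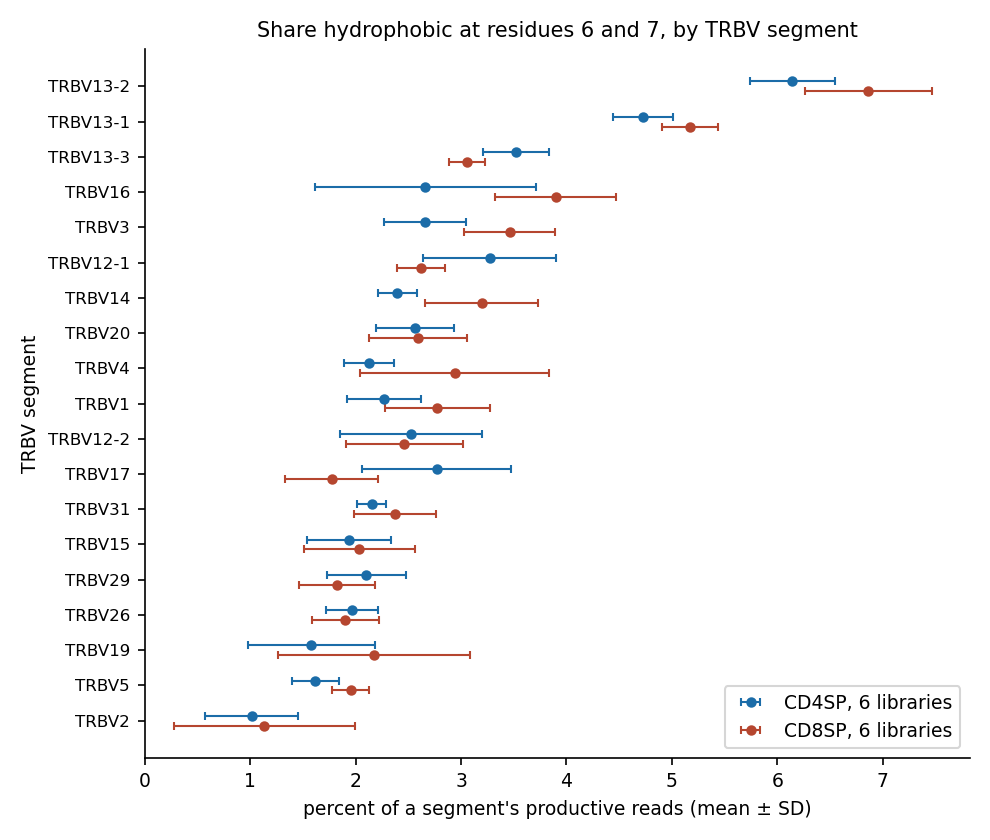
Share of each TRBV segment's productive reads that were hydrophobic at residues 6 and 7, mean ± SD over 6 CD4SP and 6 CD8SP libraries, for segments with at least 0.5% of productive reads. TRBV13-2 and TRBV13-1 lead in both populations and TRBV2 is lowest in both. TRBV5 lies low in CD4SP (1.62%) and in CD8SP (1.96%) above TRBV17, TRBV26 and TRBV29. No segment passed the threshold between populations.

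By J segment, TRBJ2-1 had the highest share of members (4.24% ± 0.268 of its reads, SD, n = 12), followed by TRBJ2-3 (3.32% ± 0.225), TRBJ2-7 (3.24% ± 0.134), TRBJ2-5 (2.94% ± 0.423), TRBJ2-2 (2.68% ± 0.340) and TRBJ2-4 (2.64% ± 0.338). All 6 TRBJ1 segments were lower: TRBJ1-2 2.26%, TRBJ1-4 2.04%, TRBJ1-6 1.96%, TRBJ1-1 1.64%, TRBJ1-3 1.498% and TRBJ1-5 1.15%. TRBJ2-5 and TRBJ2-4 were lower in CD4SP, which is 16.7% of the 12 segments tested. TRBJ2-5 had 2.58%, 2.91%, 2.48%, 2.29%, 2.90% and 2.45% members in the WT and KO CD4SP libraries and 2.94%, 3.11%, 3.29%, 3.47%, 3.41% and 3.501% in the CD8SP libraries. The 2 populations did not overlap, and the log2 fold difference was -0.34 ± 0.0612 (SE, adjusted p = 1.68e-05, edgeR quasi-likelihood test, Benjamini-Hochberg adjusted). TRBJ2-4 differed by -0.29 ± 0.0755 (edgeR adjusted p = 0.00234), with 2.19% to 2.71% in CD4SP and 2.59% to 3.28% in CD8SP, and was not called without KO mouse 1 (edgeR adjusted p = 0.0547) or KO mouse 2 (edgeR adjusted p = 0.0993). TRBJ1-4 was at -0.38 (edgeR adjusted p = 0.0536) and was called in addition without the mouse as a block (-0.39, edgeR adjusted p = 0.0153), with each clonotype counted once (-0.33, edgeR adjusted p = 0.0281) and without KO mouse 3 (-0.54, edgeR adjusted p = 0.00164).

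No J segment was called between genotypes (0% of 12 segments in CD4SP, in CD8SP and for the difference of effects), with 1, 0 and 0 at an unadjusted p under 0.05 by edgeR. TRBJ1-3 in CD4SP had the smallest p (log2 0.56, edgeR adjusted p = 0.166) and was called only without WT CD4SP library 1 (0.80, edgeR adjusted p = 0.0322). Taken as the TRBJ2 share of member reads, the WT CD4SP libraries had 84.2%, 85.7% and 84.2% and the KO CD4SP libraries 80.2%, 82.8% and 81.5%. The groups did not overlap, at a difference of -3.20 points ± 0.707 in 3 of 3 pairs, where the exact sign-flip p could not fall below 0.25. Invariant natural killer T alpha reads were higher in KO in 3 of 3 pairs, with 5.27%, 6.30% and 6.51% of productive alpha reads in WT CD4SP and 6.40%, 7.30% and 8.51% in KO CD4SP, and their part in the TRBJ2 difference was not tested. In CD8SP the TRBJ2 difference was -0.350 points ± 1.99, and the difference of the 2 differences was -2.85 points (3 of 3 pairs, exact p = 0.25). Among the other productive reads of CD4SP, TRBJ2 was 73.3% in WT and 72.8% in KO, a difference of -0.491 points with 2 of 3 pairs lower. Tryptophan at either position was also lower in KO in 3 of 3 pairs in CD4SP, with 36.8% ± 2.76 of member reads in WT and 33.4% ± 1.81 in KO, and these groups overlapped.

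By length, members were on average 13.8 residues long in every group of CD8SP and 13.9 in CD4SP, 0.121 residues longer in CD4SP in 6 of 6 mice (exact sign-flip p = 0.03125). The members' share of the reads of a given length was 6.58% ± 0.628 (SD, n = 12) at 11 residues, 2.10% at 12, 2.15% at 13, 2.53% at 14, 2.91% at 15, 4.57% at 16 and 4.92% at 17. The length of 10 residues had 0.378% ± 0.363. At 8 residues, where positions 6 and 7 end in the J segment, 103 member clonotypes made up 21.2% ± 5.46 of that length, and 76.7% of them had both codons wholly J-encoded. These short chains were 0.608% of member reads.

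Between CD4SP and CD8SP 1 of the 9 lengths tested was called, 11.1%. At 13 residues the share was 1.82%, 1.85%, 1.84%, 2.08%, 1.92% and 1.67% in the WT and KO CD4SP libraries and 2.18%, 2.84%, 2.38%, 2.26%, 2.26% and 2.66% in the CD8SP libraries. Every CD8SP library lay above every CD4SP library, and the log2 fold difference was -0.38 ± 0.0754 (SE, edgeR adjusted p = 0.0016). It was not called without WT mouse 2 (-0.33, edgeR adjusted p = 0.0695), and without the mouse as a block 14 residues (-0.16) and 17 residues (0.39) were called too. No length was called between genotypes or for the difference of effects (0% of 9 lengths), with 0, 0 and 1 at an unadjusted p under 0.05 by edgeR.

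**Figure D5:**
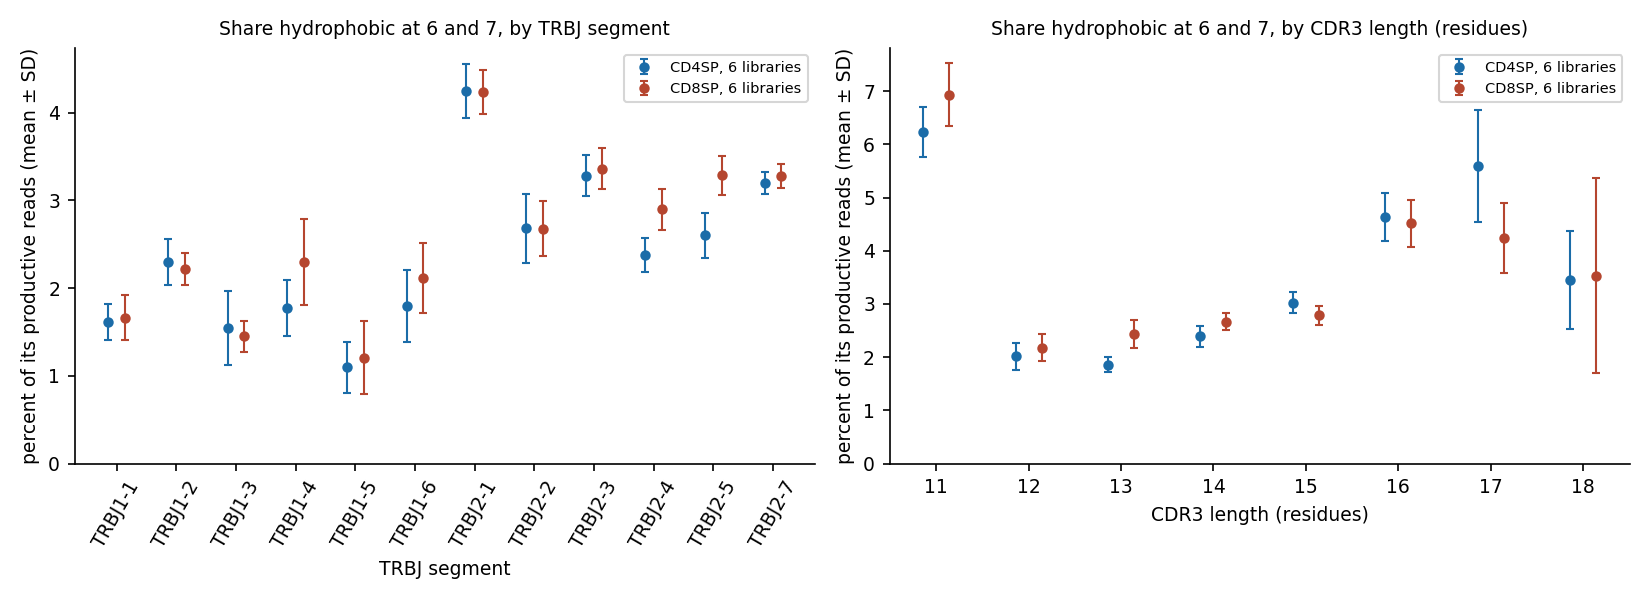
Share hydrophobic at residues 6 and 7 among the productive reads of each TRBJ segment (left) and each CDR3 length of 11 to 18 residues (right), mean ± SD over 6 CD4SP and 6 CD8SP libraries. TRBJ2-4, TRBJ2-5 and 13 residues lie lower in CD4SP, and TRBJ2-1 and 11 residues have the highest shares.

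Few members were shared between libraries, where the CD4SP and CD8SP libraries of 1 mouse counted separately. Sharing between mice was not counted. Of the 13032 member protein sequences with their segments, 10.6% were found in 2 or more libraries, against 14.9% of the 393092 others. In 6 or more libraries there were 40 members (0.307%) and 3316 of the others (0.844%). No member was found in all 12 libraries, against 48 of the 393092 others, which is too rare to compare in the smaller set. Per library, 9.60% ± 1.252 (SD, n = 12) of member clonotypes and 14.1% ± 0.582 of the others recurred in another library, lower in members in 12 of 12 libraries (exact sign-flip permutation over 6 mice, p = 0.03125). The value of a mouse depends on the libraries of the other mice, so the 6 values tested were not independent. The most widely shared member, TRBV13-1 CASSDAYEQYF TRBJ2-7, printed first above, was found in 11 libraries with 96 reads, 38 in CD4SP and 58 in CD8SP. It had 5 nucleotide forms, of which the printed one was found in all 11 libraries with 58 reads. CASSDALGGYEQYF was found in 9 libraries with 7 reads in CD4SP and 40 in CD8SP. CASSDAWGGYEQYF was found in 8 with 24 and 17. No member was among the 203 shared protein sequences abundant enough to test, so no member clonotype was tested alone.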

How the data were processed

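Clonotype tables of 12 libraries were used, 1 of alpha and delta and 1 of beta chains for each. The SMARTer Mouse TCR kit and a MiSeq were used, per the labels. MiXCR and VDJtools are named in the design text and mm10 in the submitters' processing notes; versions and filters are not given in the sources used here. Values as deposited are read counts per clonotype. The deposited fraction is the count over the file's total and served only as a check.

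Clonotypes were merged by V, J and nucleotide CDR3 within a library, with the best hit as segment. Tests used edgeR 4.0.16 in R 4.3.3 (filterByExpr, productive reads as library size, or the segment's or length's reads as offset), DESeq2 1.42.0, and exact two-sided sign-flip permutation in Python 3.11.15 with pandas 2.3.3. The edgeR fits of residue pairs and TRBV segments were checked on simulated counts with the same small spread throughout and no difference between mice. That check does not cover the spread between these mice or the grouping of reads in clonotypes. Genotype fits were blocked by replicate number, since the design text describes paired mice and a paired test, and CD4SP against CD8SP had the mouse. The pairing rests on the labels' numbers: log residue-pair shares of same-numbered WT and KO libraries deviated together with a correlation of only -0.0512 to 0.0458, and CD4SP and CD8SP of a mouse with -0.0608 to 0.152.

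The members and lists were chosen with earlier results of these data known. The text names the 10 commonest pairs and those past the threshold or of smallest p, the 5 TRBV segments of highest and lowest share with usage of at least 0.5%, all TRBJ segments, and leading shared clonotypes. The measures of TRBJ2, TRBD2 and tryptophan, the origin of codons, and pairs at common TRBV usage were chosen after seeing the data.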

Additional observations from a re-analysis of the deposited data

Results flagged for a closer look

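Of 51 values compared between genotypes in both populations, 2 moved in opposite directions in every pair. With 3 pairs per population, values without any genotype effect can meet this rule. How many of the 51 would do so was not computed. The share of reads with a hydrophobic residue at position 6 was lower in KO in 3 of 3 pairs of CD4SP (-0.470 points) and higher in 3 of 3 pairs of CD8SP (0.0804 points), a difference of -0.550 points ± 0.0618 (exact sign-flip p = 0.25, the smallest that 3 pairs allow). The share of members among TRBJ2-5 reads was lower in KO in 3 of 3 pairs of CD4SP (-0.114 points) and higher in 3 of 3 pairs of CD8SP (0.346 points), a difference of -0.460 points ± 0.311 (exact p = 0.25). For TRBJ2-5 the same difference was -0.22 on the log2 scale with an adjusted p of 0.662 by edgeR (quasi-likelihood test, Benjamini-Hochberg adjusted). The 4 CD4SP and CD8SP groups of position 6 had means of 19.1% and 18.6% in WT and KO CD4SP and of 19.6% and 19.7% in WT and KO CD8SP.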

How the results depend on the processing

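Of 883 alternative values of 74 results, 834 stayed on their side of the threshold. This takes in counts within 1.5 times of the reported one and 40 differences not called that changed sign. It also takes in values of the genotype differences in the shares of reads and clonotypes. Their exact tests on at most 3 pairs could not pass 0.05 in any setting. None of the called results reversed. As reported, CD4SP minus CD8SP in the share of reads passed 0.05 only before adjustment over the panel of measures. By unadjusted exact sign-flip tests this difference fell short of 0.05 without shared clonotypes (-0.188) and without alanine and tyrosine (-0.0498). It also did so at common TRBV usage (-0.115), CDR3 length (-0.172) or TRBV and TRBJ usage together (-0.0811). For the share of clonotypes the same settings gave -0.126, -0.0264, -0.0605, -0.0794 and -0.0383. Leaving out each mouse gave -0.298 to -0.224 points for reads and -0.175 to -0.137 for clonotypes, where 5 mice allow no p below 0.0625. KO minus WT in CD4SP clonotypes became -0.123 at positions 5 and 6 and -0.0789 at 7 and 8, and productive minus out-of-frame in CD8SP -0.0929 at the TRBV usage of productive joins. Without the replicate block, 7 TRBV segments, 3 TRBJ segments and 3 lengths were called between CD4SP and CD8SP in place of 0, 2 and 1, the 7 member pairs kept their calls, and the label permutation of the share of reads gave p = 0.0021645; with each clonotype counted once 7 segments were called. Leaving out libraries gave 0 to 5 segments, 1 to 3 J segments, 0 to 2 lengths and 6 to 7 member pairs there, 0 to 1 TRBV segment for KO against WT in CD8SP and 0 to 1 TRBJ segment in CD4SP. DESeq2 called 5 of the 7 member pairs, and without KO mouse 3 the 7 called pairs shared 5 with the reported ones. IW was called in addition with TMM scaling factors, with each clonotype counted once and without KO mouse 3. IL was added with each clonotype counted once, AI without KO mouse 3 and VV without WT mouse 1. The cause of these changes was not tested. Shared clonotypes could be refitted only without a filter, and their other alternatives were not run. With 1.75 to 2.99 reads per member clonotype, single clonotypes could not be compared between groups.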
